A study of Homo sapiens with 12 samples.

Results

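The comparison described here is that of ELOVL5 knockdown with control in A498, an established human cell line from a clear cell kidney carcinoma. Its members are the 3 libraries of cells given siRNA against ELOVL5 (siELOVL5) and the 3 libraries of cells given control siRNA, which are 6 of the 12 libraries of the series. The other 6 libraries are 3 of cells given siRNA against ELOVL2 (siELOVL2) and 3 of cells given both siRNAs (double knockdown). They entered the fit for its estimate of spread, and served as a second pair of groups that differ by the ELOVL5 siRNA. All groups share the parental line, an siRNA transfection and a single batch label. Replicates are called biological in the labels, which do not say whether they came from separate passages or days. The siRNA sequences, how many siRNAs were used per gene and the time from transfection to harvest are not given in the labels. Silencing was transient in bulk cultures, so for every gene below fewer cells expressing it and less RNA per cell cannot be told apart.

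ELOVL5 is an elongase of the endoplasmic reticulum that adds a malonyl-CoA-derived carbon pair to polyunsaturated fatty acyl chains. It works between the desaturase steps encoded by FADS2 and FADS1, on the route from linoleic and alpha-linolenic acid to arachidonic and eicosapentaenoic acid. ELOVL2 acts mainly on the longer products of that route. Polyunsaturated fatty acids restrain SREBP-driven lipogenic genes and are ligands of PPAR receptors, which bind DNA as partners of the retinoid X receptors.

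Values are the deposited normalized read counts, called signal below, for which every library has the same distribution. The read depth behind them was estimated at 6.72 to 10.7 M reads per library in the 6 libraries. Differences are given on the scale of log2(signal + 1), with the standard error (SE) and p adjusted by the Benjamini-Hochberg method over all 18648 genes tested with limma. A gene was called at an adjusted p under 0.05. The kidney tubule and carcinoma markers PAX8, KRT8, KRT18 and VIM were all expressed, and PAX2, a kidney lineage factor, stood at 134, 102 and 117 in control and 107, 103 and 121 in siELOVL5. VIM is also in the list of mesenchymal and matrix genes. Of 27 epithelial and proximal tubule markers found in the table, 23 were tested and 2 were at 0 in all 6 libraries. The 4 too low to be tested were EMX2, LRP2, SLC22A6 and SLC22A8. Of the markers of other cell types found in the table, 5 of 15 leukocyte, 1 of 9 endothelial and 2 of 12 fibroblast and pericyte markers were at 0 in all 6 libraries. The leukocyte markers summed to 349.6 to 397 in control and 340.1 to 364 in siELOVL5, most of it from CD68. Fibroblast and pericyte markers summed to 710 to 757.5 in control and 744 to 779 in siELOVL5. Endothelial markers summed to 14.25 to 38 in control and 21.5 to 28 in siELOVL5. Library siELOVL5 replicate 3 stood apart from its replicates. Among the 9324 genes at or above the median level, 196 (2.1%) were at least 2-fold above and 90 (0.965%) at least 2-fold below the mean of siELOVL5 replicates 1 and 2. The same counts were 9 and 44 for replicate 1 and 1 and 52 for replicate 2, each against the other pair. The called genes, the lists and most genes named from a list are therefore given with and without that library.

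ELOVL5 was strongly reduced in every siELOVL5 library. Its signal was 1939, 1954 and 2038 in the control libraries and 147, 141 and 156 in the siELOVL5 libraries, a fall from a mean of 1977 ± 53.2 to 148 ± 7.43 (SD, n = 3 each), or to 7.48% of control. The log2 difference was -3.73 (SE 0.09, limma adjusted p = 1.36e-10), and it was -3.77 without siELOVL5 replicate 3. The 3 siELOVL5 libraries, replicate 3 included, were alike in how little ELOVL5 they retained. In the double knockdown the signal was 177, 172 and 187, against 1791, 1994 and 2328 with siELOVL2 alone.

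The other elongases did not pass the test with or without siELOVL5 replicate 3. The 6 tested elongases, ELOVL5 included, had a median of -0.23 with 2 above control. Without replicate 3 it was -0.15 with 1 above. ELOVL2, the elongase of longer polyunsaturated chains, stood at 299, 299 and 211 in control and 286, 235 and 165 in siELOVL5 (log2 -0.26, SE 0.24, limma adjusted p = 0.765; log2 -0.04 without replicate 3), with overlapping groups. ELOVL1, which elongates saturated and monounsaturated very long chains, had 478, 526 and 565 in control and 551, 606 and 632 in siELOVL5, an unadjusted p of 0.0422 and an adjusted p of 0.513. ELOVL6, which elongates palmitate, had 904, 974 and 1325 against 834, 937 and 994. ELOVL4 was listed at 0 in all 6 libraries. Neither did any of the 15 desaturases and partners of the elongation cycle pass. Of these 15, 0 had an unadjusted p under 0.05, against 9.56% of all tested genes. Their median was -0.04 with 7 above and 8 below control. Without siELOVL5 replicate 3 it was -0.11 with 2 above and 13 below, again with 0 called and 0 at an unadjusted p under 0.05. With the replicate number as a block as well it was -0.02, with 7 above and 8 below. FADS2, the first desaturase of the route, ran from 1022, 1551 and 1962 in control to 1014, 1564 and 2196 in siELOVL5, and SCD, the stearoyl-CoA desaturase, from 6161, 10825 and 14339 to 6161, 10928 and 16189. In both genes, replicates with the same number were close to each other and replicates within a group were not. FADS1, the desaturase that acts on the product of ELOVL5, had 417, 513 and 608 and 376, 507 and 921, the last value from siELOVL5 replicate 3.

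Across the transcriptome, 26 of 18648 genes were called (0.139%), 23 lower (0.123%) and 3 higher (0.0161%) in siELOVL5. A further view without adjustment found 1783 genes (9.56%) with p under 0.05. ELOVL5 had by far the largest fall among the called genes, and 5 falls including it reached 2-fold. For all 26 genes the 3 siELOVL5 libraries lay outside the range of the 3 controls. That held for 6.07% of all tested genes above control and 7.04% below.

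**Figure D1:**
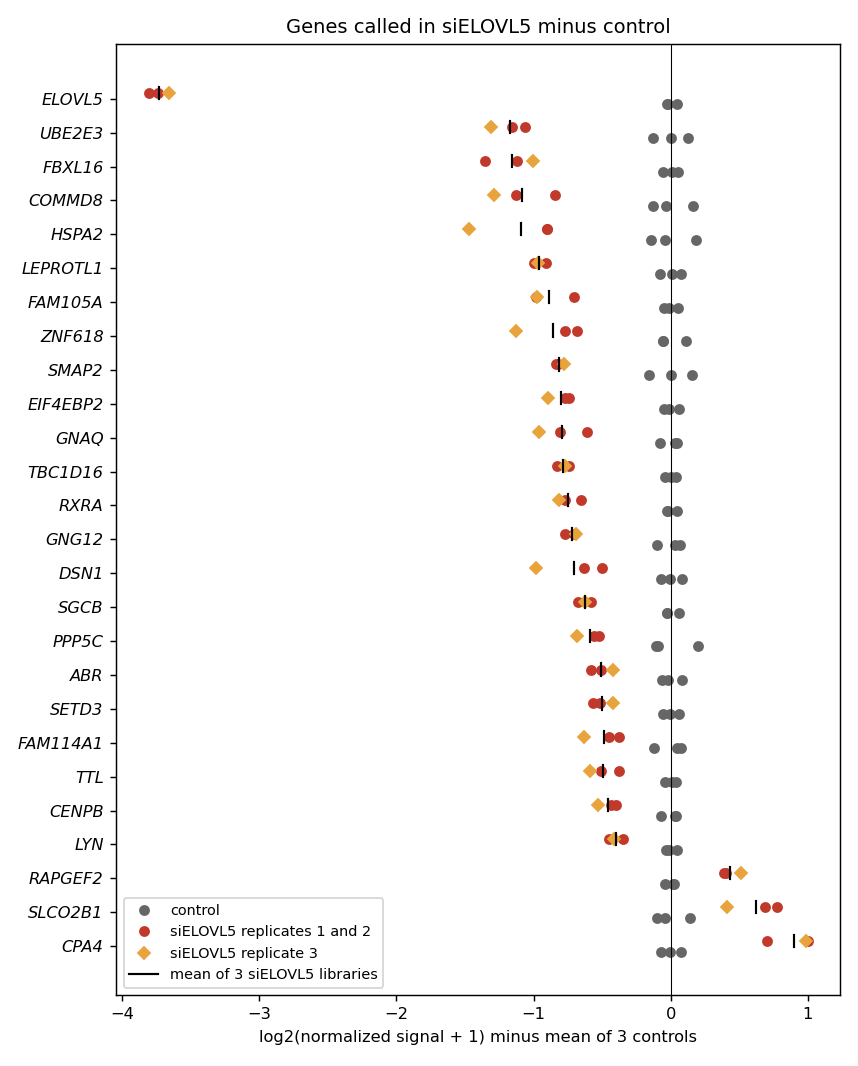
Each row is a called gene and each point a library, placed by log2(normalized signal + 1) minus the mean of the 3 control libraries, with black bars for the mean of the 3 siELOVL5 libraries. Circles and the diamond of siELOVL5 replicate 3 lie beyond the control points in each of the 26 rows, and ELOVL5 at -3.73 lies far to the left of the next gene, UBE2E3 at -1.17.

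The called genes are described in an order of known roles that was set after they were called, with no test that any role was more frequent among them than among other genes. UBE2E3, a ubiquitin-conjugating enzyme, had 559.9, 471 and 516 in control and 246, 231 and 207 in siELOVL5 (log2 -1.17, SE 0.13, limma adjusted p = 0.00131). The highest siELOVL5 value of UBE2E3 was below its lowest control. The F-box gene FBXL16 had 221, 238 and 231 in control and 89.4, 105 and 114 in siELOVL5 (log2 -1.16, SE 0.14, limma adjusted p = 0.00351). HSPA2, a chaperone of the HSP70 family, had 158, 185 and 147 against 86.8, 86.5 and 58, with its lowest value in replicate 3 (limma adjusted p = 0.0264). FAM105A, an OTU-family protein now named OTULINL, had 264, 271 and 283 against 138, 167 and 138 (log2 -0.88). Of the 23 tested heat shock genes, only HSPA2 was called, with or without siELOVL5 replicate 3. Of all tested genes, 0.139% and 0.209% were called in these fits. The list had a median of -0.14 with 4 above and 19 below control. Without replicate 3 it was -0.00 with 11 above and 12 below. At an unadjusted p under 0.05 were 5 with all libraries and 2 without replicate 3, against 9.56% and 7.27% of all tested genes.

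COMMD8, a subunit of the COMMD complex that serves endosomal recycling, had 235, 269.6 and 221 in control and 133, 109.9 and 97.8 in siELOVL5 (log2 -1.09, SE 0.16, limma adjusted p = 0.0242). LEPROTL1, a small membrane protein of the endosomal and Golgi system, had 386, 410.5 and 431 against 217, 204 and 209, with little spread inside either group (log2 -0.96, SE 0.08, limma adjusted p = 0.000178). TBC1D16, a GTPase-activating protein for Rab proteins, had 1534, 1481 and 1571 against 858, 914 and 894 (log2 -0.78, limma adjusted p = 0.000178). SMAP2, a GTPase-activating protein for Arf, had 214, 239.8 and 266 against 134, 134 and 139 (log2 -0.81). The siELOVL5 libraries of TBC1D16 and SMAP2 were nearly equal, replicate 3 included.

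GNAQ encodes the alpha subunit of the Gq protein that activates phospholipase C, and its signal was 1814, 1956 and 1983 in control and 1094, 1258 and 984 in siELOVL5 (log2 -0.79, SE 0.11, limma adjusted p = 0.0113). GNG12, a gamma subunit of heterotrimeric G proteins, had 3040.4, 3123 and 2776 against 1742, 1824 and 1847 (log2 -0.72, limma adjusted p = 0.00131). LYN, a kinase of the Src family, had 812, 802 and 849 against 645, 602 and 616, a smaller fall (log2 -0.40, limma adjusted p = 0.0411). ABR, a regulator of small GTPases related to BCR, had log2 -0.51, and PPP5C, a serine/threonine phosphatase, had log2 -0.59.

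RXRA, the retinoid X receptor alpha that pairs with PPAR, LXR and retinoic acid receptors, was also lower. Its signal was 1461, 1464 and 1534 in control and 869, 942 and 845 in siELOVL5 (log2 -0.75, SE 0.08, limma adjusted p = 0.0011). EIF4EBP2, a repressor of cap-dependent translation that binds eIF4E, had 1353, 1323 and 1423 against 818, 799.8 and 734 (log2 -0.80, SE 0.08, limma adjusted p = 0.00056). It was the only called gene among 22 tested genes of cap-dependent translation control, with or without replicate 3. Of all tested genes, 0.139% and 0.209% were called in these fits. The list had a median of -0.00 with 11 above and 11 below control, and without replicate 3 of 0.03 with 15 above and 7 below. At an unadjusted p under 0.05 were 4 and 5, against 9.56% and 7.27% of all tested genes. EIF4EBP1, a relative of EIF4EBP2, had 415, 384 and 345 against 252, 212 and 367 (limma adjusted p = 0.396, and 0.0758 without replicate 3). It was lower than control in replicates 1 and 2 but within the control range in replicate 3.

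SGCB, the beta-sarcoglycan of the dystrophin complex, had 1204, 1279 and 1207 in control and 768, 823 and 797 in siELOVL5 (log2 -0.63, limma adjusted p = 0.00131). DSN1, a subunit of the MIS12 kinetochore complex, had log2 -0.70, and CENPB, which binds centromeric alpha satellite DNA, had log2 -0.46. TTL, the ligase that adds tyrosine to tubulin, had log2 -0.49, and SETD3, the methyltransferase of actin, had log2 -0.50. The zinc finger gene ZNF618 had 1160.4, 1156 and 1302 in control and 707, 749 and 552 in siELOVL5 (log2 -0.86), and FAM114A1 had log2 -0.49. The adjusted p of these genes other than SGCB lay between 0.0214 and 0.0411 in limma.

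Only 3 genes rose. CPA4, a metallocarboxypeptidase, had 332, 368 and 348 in control and 569, 698 and 694 in siELOVL5 (log2 0.90, SE 0.14, limma adjusted p = 0.0242). SLCO2B1, an organic anion uptake transporter, had 529, 625 and 551 against 912, 972 and 755 (log2 0.63, SE 0.10, limma adjusted p = 0.037), with the lowest of the siELOVL5 values in replicate 3. RAPGEF2, an exchange factor for Rap GTPases, had 727, 722 and 693 against 934, 945 and 1018 (log2 0.43, limma adjusted p = 0.046). The count of calls depended on single libraries. Without any 1 of the 12 libraries it ran from 9 to 39, and 9 of the 26 genes were called in all 12 of those fits: ELOVL5, UBE2E3, FBXL16, LEPROTL1, EIF4EBP2, TBC1D16, RXRA, GNG12 and SGCB. It was 9 without control replicate 2 or without control replicate 3, 12 without control replicate 1, and between 13 and 16 without any 1 siELOVL2 library, without siELOVL5 replicate 2 or without double knockdown replicate 2. With the control and siELOVL5 libraries alone in the fit, ELOVL5 was the only call.

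Without siELOVL5 replicate 3, 39 genes were called (0.209%), 35 lower (0.188%) and 4 higher (0.0215%), and 22 of them were among the 26. All 26 kept their direction, and the largest move was that of HSPA2, from -1.09 to -0.90. The 4 calls lost were CENPB, CPA4, PPP5C and RAPGEF2, with limma adjusted p of 0.0549, 0.0526, 0.0549 and 0.0676. Several of the calls gained were genes in which replicate 3 lay nearer to control than replicates 1 and 2 did. SWAP70, a regulator of actin and Rac signalling, had 703, 695 and 644 in control and 399 and 308 in siELOVL5 replicates 1 and 2, while replicate 3 had 619.8 (log2 -0.95 without replicate 3, limma adjusted p = 0.01). TRAF6, a ubiquitin ligase of Toll-like and interleukin-1 receptor signalling, had 198, 206 and 182 in control, 118 and 91.9 in replicates 1 and 2 and 177 in replicate 3 (limma adjusted p = 0.0169 without replicate 3). PLOD2, a collagen lysyl hydroxylase, had 4612, 5179 and 4857 in control, 2479 and 2582 in replicates 1 and 2 and 3875 in replicate 3, which lay between both sets (limma adjusted p = 0.000467 without replicate 3). NIPA1, a magnesium transporter, had log2 -0.92 without replicate 3 and -0.74 with it.

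Among the rises without replicate 3, PALLD, an actin-bundling protein, had 1213, 1288 and 1266 in control, 1768 and 1625 in siELOVL5 replicates 1 and 2 and 1219.7 in replicate 3 (log2 0.43 without replicate 3, limma adjusted p = 0.0133). ANKRD52, a regulatory subunit of protein phosphatase 6, had 2738, 2998 and 3134, then 4231 and 4087, and 3118 in replicate 3 (limma adjusted p = 0.0138 without it). For both genes replicate 3 lay inside the control range. SLC7A5, the light chain of the large neutral amino acid transporter, behaved otherwise, with 6302, 6705 and 6378 in control, 8547 and 8512 in replicates 1 and 2 and 12706 in replicate 3. Its log2 difference was 0.40 without replicate 3 (limma adjusted p = 0.0344) and 0.59 with it (limma adjusted p = 0.132).

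The ELOVL5 siRNA was also present in the double knockdown, and double knockdown minus siELOVL2 shares no library with siELOVL5 minus control. In that comparison 11 genes were called (0.059%), all of them lower, and 8 of the 26 genes were among them: ELOVL5, CENPB, COMMD8, EIF4EBP2, GNG12, LEPROTL1, TBC1D16 and UBE2E3. Without siELOVL2 replicate 3 the number called fell to 2. ELOVL5 differed by -3.50 (SE 0.09, limma adjusted p = 3.1e-10). COMMD8 had 298, 259 and 268 with siELOVL2 and 135, 142 and 93.2 in the double knockdown (log2 -1.17, limma adjusted p = 0.0202). UBE2E3 had 430.5, 453 and 449.5 against 196, 202 and 279 (log2 -0.99, limma adjusted p = 0.00921). Both genes thus differed in these libraries by amounts near those in siELOVL5 minus control.

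All 25 called genes other than ELOVL5 had the same direction in both comparisons, and the share over all tested genes was not counted. The 22 that fell had a median log2 difference of -0.76 in siELOVL5 minus control and of -0.46 in double knockdown minus siELOVL2, where they ranged from -1.17 to -0.15. The first of these medians is set by the choice of called genes. For all 22 the 3 double knockdown libraries lay below the 3 siELOVL2 libraries, which was so for 4.33% of all tested genes. The spread within these libraries also entered the calling of all 25, so the genes were not chosen independently of them. The share of 4.33% is over genes not chosen in that way. RXRA had 1429.7, 1578 and 1628 with siELOVL2 and 1161, 1132 and 1289 in the double knockdown (log2 -0.37, limma adjusted p = 0.345), and GNAQ had 1581, 1749.6 and 1831 and 1069, 1118 and 1359 (log2 -0.55, limma adjusted p = 0.259). The difference between both effects of the siRNA was tested as an interaction. In limma 0 genes were called (0%), 522 had an unadjusted p under 0.05 (2.8%), and the smallest adjusted p was 0.996. Fitted without a variance trend, limma called 9.

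**Figure D2:**
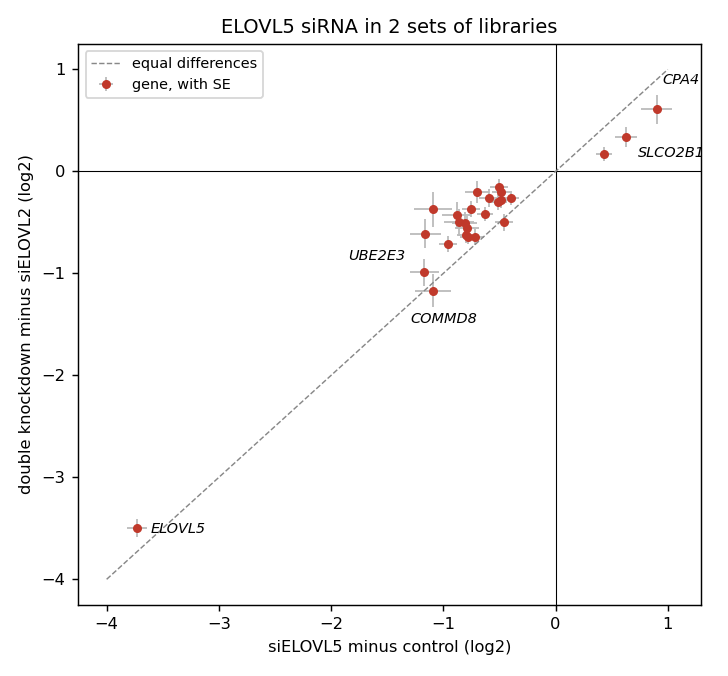
Each point is a gene called in siELOVL5 minus control, with its log2 difference there on the x axis, its log2 difference in double knockdown minus siELOVL2 on the y axis and bars of 1 SE. All 26 points lie in the quadrants of equal sign, ELOVL5 near -3.73 and -3.50, and most of the others lie above the dashed line of equal differences on the side of lower genes.

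The 7-base word GAGAGGA was searched on the sense strand of the longest annotated 3′ UTR of each gene (GENCODE 29). The word came from a search of these same libraries, so its share among the falls is a description with no test. It occurred in 15 of the 22 falls other than ELOVL5 (68.2%), in 0 of the 3 rises and in 2505 of 14703 tested genes with an annotated 3′ UTR (17%). The falls had long 3′ UTRs, with a median of 2484 bases against 1282 over tested genes. Of the 3967 tested genes with a 3′ UTR at least as long as that median, 35.4% held the word. Over all 2505 carriers the median log2 difference was -0.03, against 0.00 in genes without it. The ELOVL5 3′ UTR, of 1729 bases, holds 1 copy. TTL, TBC1D16 and GNG12 hold 6, 3 and 3 copies and ZNF618, EIF4EBP2 and LYN hold 2 each, while HSPA2, LEPROTL1, FAM105A, RXRA, SETD3, FAM114A1 and CENPB hold 0. The siRNA sequences are not given in the labels, so the word was not compared with them. The sites below are from ELOVL5 and the genes called in both comparisons that hold the word, 1 site per gene and the first with full flanks where there are several copies, 30 bases each, 5′ to 3′, with the word in capitals.
ELOVL5: caccagtgcgaGAGAGGAtgtatacttttc
UBE2E3: cagtttgtaatGAGAGGAtttccttttacc
COMMD8: attacatggttGAGAGGAaatgcataaaat
EIF4EBP2: tattttagaaaGAGAGGAaggatgtctgca
TBC1D16: ttgggcaacatGAGAGGAaccttttcatat
GNG12: agcccagctgaGAGAGGAgcaggaatgtgt
The word shown starts at base 860 of the ELOVL5 3′ UTR, at base 456 of 553 in UBE2E3, at base 182 of 849 in COMMD8 and at base 131 of 8516 in TBC1D16. The flanks of the word differ between the 6 sites shown, and the further copies in EIF4EBP2, TBC1D16 and GNG12 were not compared.

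Lists of lipid genes were described by their counts and medians, beside the median of -0.00 over all tested genes. The 31 tested genes of fatty acid oxidation and PPAR targets had a median of -0.06, with 10 above and 21 below control, 0 called by limma and 3 at an unadjusted p under 0.05, against 9.56% of all tested genes. Without siELOVL5 replicate 3 the median was -0.01 with 13 above control, 0 called and 1 at an unadjusted p under 0.05, against 7.27% of all tested genes. CPT2, the inner mitochondrial carnitine palmitoyltransferase, had 111, 102 and 107 in control and 89.2, 89.8 and 88.6 in siELOVL5 (log2 -0.26 with replicate 3 and -0.25 without it, limma adjusted p = 0.514 and 0.719), and PPARD, a lipid-activated nuclear receptor, had 422, 469 and 397 and 497.8, 503 and 496 (log2 0.22 with it and 0.22 without it, limma adjusted p = 0.454 and 0.641). The groups of both genes did not overlap, and neither passed the test. Genes of triglyceride storage (26 tested), phospholipid acyl chain remodelling (22 tested), eicosanoid synthesis (20 tested) and de novo fatty acid synthesis (17 tested) had medians of 0.06, -0.03, -0.10 and 0.02, again with 0 called by limma and 4, 2, 1 and 0 genes at an unadjusted p under 0.05. Without replicate 3 their medians were 0.03, -0.04, -0.10 and -0.07, with 0 called and 2, 1, 0 and 0 at an unadjusted p under 0.05. Control replicate 3, the highest control in the de novo synthesis list, stayed in that fit. With the replicate number as a block and without siELOVL5 replicate 3 that list's median was 0.05, with 10 above and 7 below. ACSL4, which activates arachidonic acid for its entry into phospholipids, had 1983, 2034 and 2023 in control and 2255, 2241 and 2973 in siELOVL5 (log2 0.29 with replicate 3 and 0.16 without it, limma adjusted p = 0.356 and 0.499). BSCL2, the seipin of lipid droplet formation, had 46.3, 53.5 and 68.2 and 94.5, 80.2 and 93.6 (log2 0.68 with replicate 3 and 0.64 without it, limma adjusted p = 0.347 and 0.573).

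Over 29 genes of cholesterol synthesis and uptake the median difference was 0.13 with 26 genes above control, and -0.07 with 5 above once replicate 3 was left out. By library, the median relative to the control mean was -0.21, -0.05 and 0.28 in controls and -0.18, 0.01 and 0.61 in siELOVL5 libraries. Control replicate 3, the highest control, stayed in the fit without siELOVL5 replicate 3, so the value of -0.07 is not a fall in replicates 1 and 2. Between libraries of the same number the median differences were 0.03, 0.04 and 0.40. With the replicate number as a block and without siELOVL5 replicate 3 the median was 0.05, with 17 above and 12 below. HMGCS1, the cytosolic HMG-CoA synthase, had 1032, 1192 and 1752 in control, 1202 and 1442 in replicates 1 and 2 and 3739 in replicate 3. None of the 29 was called by limma with or without replicate 3. At an unadjusted p under 0.05 were 0 and 1, against 9.56% and 7.27% of all tested genes.

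Interferon-stimulated genes had the highest median of the 34 lists with all libraries. Without siELOVL5 replicate 3 the 9 tested leukocyte markers had a higher one, 0.64, with 0 of them called and 0 at an unadjusted p under 0.05. Interferons signal through JAK kinases and transcription factors such as STAT2 and IRF9, and the induced genes code for RNA sensors, antiviral effectors and ubiquitin-like modifiers. Of 44 such genes 43 were above control, with a median log2 difference of 0.78, and 16 had all 3 siELOVL5 libraries above all 3 controls, against 6.07% of all tested genes. By limma 0 were called, and 37 of 44 had an unadjusted p under 0.05, against the 9.56% of all tested genes. Without siELOVL5 replicate 3 all 44 were above control, with a median of 0.57 and 0 called, and 17 had an unadjusted p under 0.05, against 7.27% of all tested genes in that fit. The exception with all libraries was UBA7, the activating enzyme for ISG15, at -0.08, which was looked up after the count was known. The list's median relative to the control mean was 0.21, -0.32 and 0.18 in the controls and 0.89, 0.20 and 1.24 in siELOVL5 replicates 1, 2 and 3, so siELOVL5 replicate 2 was level with control replicates 1 and 3 and the groups overlapped. Control replicate 2 was the lowest of the 6. Between libraries of the same number the median differences were 0.75, 0.58 and 1.07, though the numbers were not taken to pair the libraries. With the replicate number as a block, limma called 3 of the 44 higher, against 0.531% of all tested genes called in either direction. In that fit 42 had an unadjusted p under 0.05, against 2612 of 18648 tested genes. Leaving out siELOVL5 replicate 3 as well, a fit chosen after seeing the data, gave 9, against 1.59%, and 41, against 2276 of 18648.

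**Figure D3:**
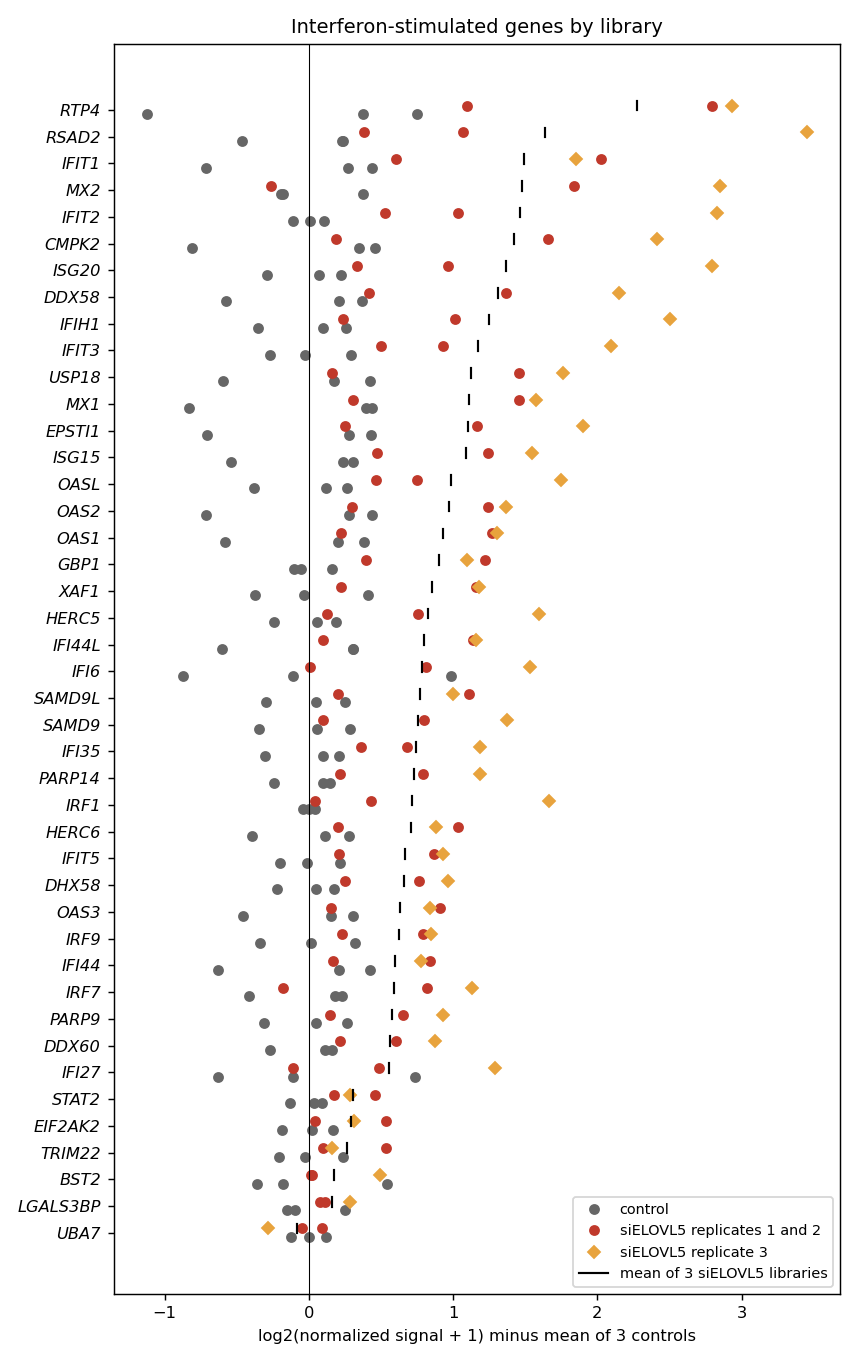
Each row is 1 of 43 of the 44 interferon-stimulated genes and each point a library, placed by log2(normalized signal + 1) minus the mean of the 3 control libraries, with black bars for the mean of the 3 siELOVL5 libraries. The bars lie right of 0 in 42 of the 43 rows, and in most rows 1 of the siELOVL5 points sits among or close to the control points.

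ISG15, the ubiquitin-like modifier, had 213, 124 and 225 in control and 431, 252 and 531 in siELOVL5, groups that do not overlap (log2 1.09, SE 0.29, limma adjusted p = 0.249, and log2 0.86, adjusted p = 0.499 without replicate 3). IFI35, an interferon-induced leucine zipper protein, had 316, 239.7 and 342 against 474, 379.6 and 675 (log2 0.74 with replicate 3 and 0.52 without it, limma adjusted p = 0.196 and 0.362). OASL, of the oligoadenylate synthetase family, had 403, 285 and 445 against 625, 514 and 1249 (log2 0.99 with replicate 3 and 0.61 without it, limma adjusted p = 0.255 and 0.375), and the RNA sensor DHX58 had 174, 132 and 159.8 against 262, 184 and 303 (log2 0.66 with replicate 3 and 0.50 without it, limma adjusted p = 0.255 and 0.498). In each of these 4 genes siELOVL5 replicate 2 was the lowest siELOVL5 library and control replicate 2 the lowest control. RSAD2, an antiviral radical enzyme, was the gene of the list most raised in replicate 3, with 157, 96.7 and 158 in control, 282 and 174 in replicates 1 and 2 and 1479 in replicate 3. In double knockdown minus siELOVL2 the list's median was 0.33, with 43 of 44 above, 0 called by limma and 1 at an unadjusted p under 0.05, against 3.6% of all tested genes.

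Promoters of these genes were searched for the core of the interferon-stimulated response element, which is GAAA, any 2 bases and GAAA, on both strands (RefSeq, GRCh38.p14, windows of 300 bases around the annotated start). It was found in 24 of the 34 list genes with a promoter entry (70.6%), in 4.38% of all 27305 genes with an entry and in 4.16% of the 11557 tested genes with an entry. The share in the list follows from which genes were listed and uses no value of these libraries. List genes with and without the core had median log2 differences of 0.79 and 0.76. The 457 other tested genes that hold it had a median of 0.05. The promoters shown are those of the 3 holders in the list with the smallest p in siELOVL5 minus control, in lower case with matches in capitals.
ISG15, chr1:1013247-1013546 (plus strand): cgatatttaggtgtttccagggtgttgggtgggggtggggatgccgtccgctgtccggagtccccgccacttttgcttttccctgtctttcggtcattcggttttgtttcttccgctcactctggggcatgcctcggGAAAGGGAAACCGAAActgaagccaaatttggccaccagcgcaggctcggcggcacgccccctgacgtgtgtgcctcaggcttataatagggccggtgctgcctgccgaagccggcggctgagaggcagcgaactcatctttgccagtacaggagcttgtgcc
PARP14, chr3:122680589-122680888 (plus strand): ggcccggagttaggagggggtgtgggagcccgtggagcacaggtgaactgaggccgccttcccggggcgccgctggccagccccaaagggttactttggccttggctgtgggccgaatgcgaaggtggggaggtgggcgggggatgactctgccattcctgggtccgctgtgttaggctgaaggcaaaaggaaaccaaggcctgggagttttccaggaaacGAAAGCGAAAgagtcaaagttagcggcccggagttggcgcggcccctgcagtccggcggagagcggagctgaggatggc
IFIT5, chr10:89414318-89414617 (plus strand): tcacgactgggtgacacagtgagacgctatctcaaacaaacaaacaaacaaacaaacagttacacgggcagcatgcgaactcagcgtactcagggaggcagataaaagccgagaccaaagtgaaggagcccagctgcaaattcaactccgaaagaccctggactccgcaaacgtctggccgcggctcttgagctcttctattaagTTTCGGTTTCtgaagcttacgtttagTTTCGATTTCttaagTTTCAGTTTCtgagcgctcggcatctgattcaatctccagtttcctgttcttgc
ISG15 holds 2 overlapping matches, PARP14 holds 1, and IFIT5 holds 3 on the opposite strand. A match describes the letters of the window and is not evidence of binding in these cells.

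The interferons themselves were at or near the floor. IFNB1 had 0, 1 and 1 in control and 1, 2.92 and 1.83 in siELOVL5, and IFNL1 had 2.5, 0 and 0 and 1.83, 2.42 and 2.75, while IFNG and IFNK were listed at 0 in all 6 libraries. Receptor genes were expressed, and IFNAR1 had 1231, 1173 and 1117 in control and 1352, 1322 and 1514 in siELOVL5 (log2 0.25 with replicate 3 and 0.19 without it, limma adjusted p = 0.381 and 0.675). Of 18 tested nucleic acid sensors and adaptors 16 were above control, with a median of 0.34, 0 called by limma, and 9 at an unadjusted p under 0.05, against 9.56% of all tested genes. Without siELOVL5 replicate 3 the median was 0.30, with 0 called and 8 at an unadjusted p under 0.05, against 7.27%. MYD88, the adaptor of Toll-like receptors, had 241, 230.2 and 265 in control and 337, 306 and 366 in siELOVL5 (log2 0.45 with replicate 3 and 0.39 without it, limma adjusted p = 0.148 and 0.265), and ADAR, which edits double-stranded RNA, had 5914, 5110.4 and 5947 and 7685, 6250.4 and 7550.2 (log2 0.34 with replicate 3 and 0.30 without it, limma adjusted p = 0.277 and 0.475). DHX58, DDX58 (RIG-I) and IFIH1 are also in the interferon-stimulated list. MHC class I genes had a smaller median of 0.12, with 17 of 20 above control and 0 called by limma. Without replicate 3 it was 0.12 with 19 above and 0 called. At an unadjusted p under 0.05 were 6 with all libraries and 4 without replicate 3, against 9.56% and 7.27% of all tested genes. NLRC5, the transactivator of those genes, had 388, 322 and 332 against 610.5, 454 and 464 (log2 0.54 with replicate 3 and 0.60 without it, limma adjusted p = 0.27 and 0.313).

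Replicate 3 of siELOVL5 had the largest difference from control of the siELOVL5 libraries in several other lists. The median relative to the control mean over 33 genes of the ATF4 and amino acid response was 0.10, 0.02 and 1.16 in siELOVL5 replicates 1, 2 and 3. Over 23 immediate early genes it was 0.07, -0.03 and 1.31, and over 31 inflammatory cytokines and NF-kappaB targets 0.43, 0.08 and 1.31. Over 40 genes of mitosis it was 0.00, -0.15 and -1.12, and over 40 genes of DNA replication -0.08, -0.16 and -0.77. The last value of each list, that of replicate 3, was beyond all 3 controls, whose medians reached 0.32 at most in the inflammatory list and -0.21 at the lowest in the mitosis list. With all libraries these lists had medians of 0.42, 0.42, 0.65, -0.41 and -0.32, and without replicate 3 of 0.06, 0.07, 0.27, -0.07 and -0.13. By limma 0 of their members were called with all libraries, and 9, 5, 11, 4 and 20 had an unadjusted p under 0.05, against 9.56% of all tested genes. Without replicate 3 those counts were 5, 2, 4, 1 and 8, against 7.27%, and the calls were SLC7A5 in the ATF4 list and MCM5 in the replication list. Control replicate 3, the lowest control in the mitosis list, stayed in the fit that gave -0.07. Between libraries of the same number the mitosis medians differed by -0.15, -0.19 and -0.91. With the replicate number as a block and without siELOVL5 replicate 3 the mitosis median was -0.22, with 2 above and 38 below. In the replication list 18 of the 40 genes had all 3 siELOVL5 libraries below all 3 controls, and 0 had all 3 above. Over all tested genes those shares were 7.04% and 6.07%. The control medians of the replication list were 0.00, -0.04 and 0.05. Without siELOVL5 replicate 3, 34 of its genes were below control and 6 above. The part of a stress in replicate 3 in any other difference was not tested, beyond the values given without that library.

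**Figure D4:**
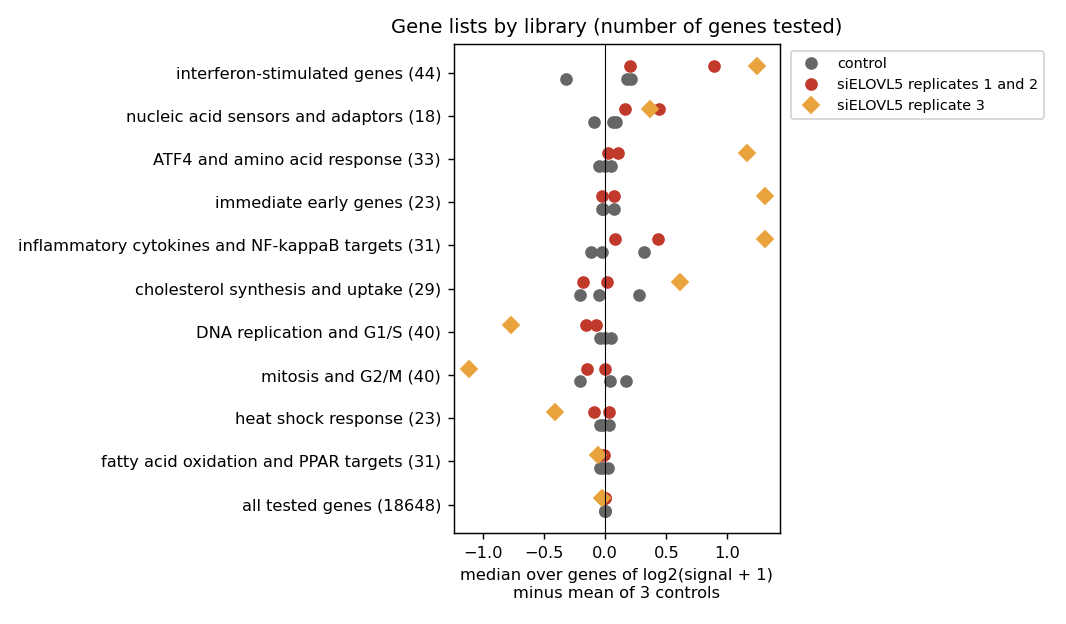
Each row is a gene list and each point a library, placed at the median over the list's tested genes of log2(normalized signal + 1) minus the mean of the 3 controls. The diamond of siELOVL5 replicate 3 lies at 1.16 in the ATF4 row and at -1.12 in the mitosis row, while siELOVL5 replicates 1 and 2 lie close to the controls there and in the interferon-stimulated row only replicate 2 does.

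The genes named next are from both ends of the difference between siELOVL5 replicate 3 and the mean of replicates 1 and 2. ATF3, a stress-induced transcription factor, had 150.4, 138 and 136 in control, 212 and 180.3 in siELOVL5 replicates 1 and 2 and 4390.0 in replicate 3. PPP1R15A, the stress-induced phosphatase subunit that reverses eIF2 alpha phosphorylation, had 704 and 576 and 4136 in the same order, and GDF15, a stress cytokine, had 1397 and 1066 and 9053. The ATF4 targets STC2 and SESN2 had 3319 and 1928 in replicate 3, against 409.9 and 307 and 476 and 449 in replicates 1 and 2. The cytokines IL6 and IL8 (CXCL8) had 288 and 156 and 505 and 213 in replicates 1 and 2 and 1815 and 2853 in replicate 3. IL8 varied widely among controls too, at 398, 156 and 63.7. MAFF, DUSP1, CSRNP1 and RSAD2 were the other genes among the 10 with the largest excess. Of the 10 with the largest deficit, PLK1, a mitotic kinase, had 1156 and 1029 in replicates 1 and 2 and 431 in replicate 3, and ANLN, a scaffold of the cleavage furrow, had 7310.3 and 5324 and 2263. KIFC1, CENPW and DEPDC1B, which also act in or around division, and CDK15, GSTCD, LFNG and LINC00704 were also among them. These genes were picked for their difference in 1 library, and their values are a description.

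**Figure D5:**
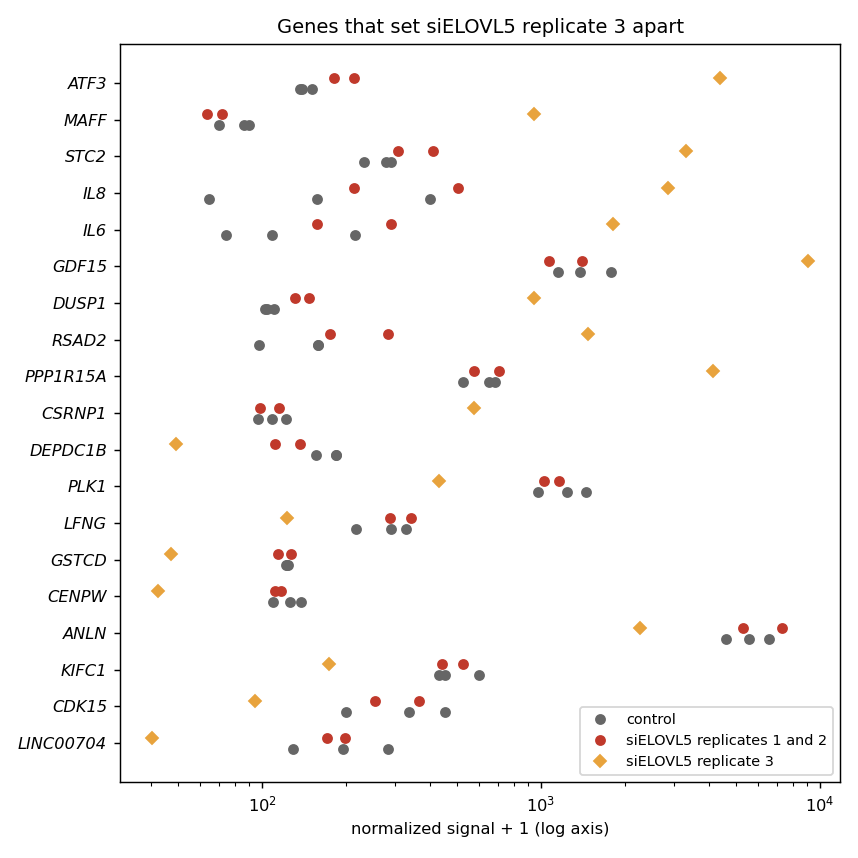
Normalized signal + 1 on a log axis for the 10 genes furthest above and 9 of the 10 furthest below in siELOVL5 replicate 3 against the mean of siELOVL5 replicates 1 and 2. Replicate 3 lies at 4390.0 for ATF3 where the other siELOVL5 libraries are at 212 and 180.3, and at 431 for PLK1 where they are at 1156 and 1029.

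SLC3A2, the heavy chain that pairs with SLC7A5, had 2700.4, 2503 and 2511 in control and 3105, 3123 and 4444 in siELOVL5 (log2 0.45 with replicate 3 and 0.28 without it, limma adjusted p = 0.229 and 0.166), and was above all controls also in replicates 1 and 2. MCM5, a subunit of the replicative helicase, had 1422, 1402 and 1433 in control and 1121, 1096 and 763 in siELOVL5 (log2 -0.54, limma adjusted p = 0.135), and was called lower without replicate 3 (log2 -0.36, limma adjusted p = 0.042). HMOX1, the haem oxygenase induced by NRF2 and held back by BACH1, had 3298, 2655 and 2508 against 1883, 1669 and 1441 (log2 -0.76, SE 0.21, limma adjusted p = 0.269, and log2 -0.66, adjusted p = 0.501 without replicate 3), and BACH1 had 1132, 1298 and 1289 against 1515, 1643 and 3345 (log2 0.71 with replicate 3 and 0.35 without it, limma adjusted p = 0.344 and 0.43). The groups of both did not overlap, and replicate 3 held the extreme value of each. Over the 32 genes of the NRF2 and ferroptosis list the median was 0.05, with 18 above and 14 below control and 0 called by limma. Without replicate 3 it was 0.01 with 17 above and 0 called. At an unadjusted p under 0.05 were 6 with all libraries and 5 without replicate 3, against 9.56% and 7.27% of all tested genes.

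CCND1, the G1 cyclin listed among hypoxia-inducible factor targets, had 2659, 2652 and 2556 in control and 1745, 1901 and 2086 in siELOVL5 (log2 -0.46 with replicate 3 and -0.53 without it, limma adjusted p = 0.16 and 0.103). The list's median was 0.02 over 34 genes, with 20 above control and 0 called by limma. Without replicate 3 it was -0.04 with 9 above and 0 called. At an unadjusted p under 0.05 were 3 with all libraries and 5 without replicate 3, against 9.56% and 7.27% of all tested genes. CSF1, the macrophage growth factor, had 9816, 7377 and 6224 against 5536, 4093 and 4033 (log2 -0.77 with replicate 3 and -0.69 without it, limma adjusted p = 0.344 and 0.614), opposite to the 27 of 31 inflammatory genes above control. DICER1, the nuclease that makes siRNAs and miRNAs, had 1236, 1323 and 1181 in control and 941, 862 and 689.9 in siELOVL5 (log2 -0.60, SE 0.11), just short of the threshold at a limma adjusted p of 0.0594 with replicate 3 and 0.0526 without it (log2 -0.47). Its log2 difference was -0.59 in double knockdown minus siELOVL2 (limma adjusted p = 0.13). The other 12 tested genes of the RNA interference machinery had an adjusted p of 0.377 or more. Over all 13, DICER1 included, the median was 0.06 with 7 above and 6 below control and 0 called by limma. Without replicate 3 it was 0.15 with 9 above and 4 below and 0 called. At an unadjusted p under 0.05 were 5 of the 13 with all libraries and 4 without replicate 3, against 9.56% and 7.27% of all tested genes. Mitochondrially encoded transcripts had a median of -0.17 with all libraries and of 0.05 without replicate 3, with 0 of 13 called by limma in either fit. Cytosolic ribosomal proteins had -0.05 and -0.03, with 0 of 30 called in either fit. With all libraries each list had 1 member at an unadjusted p under 0.05, against 9.56% of all tested genes. Without replicate 3 those counts were 0 and 1, against 7.27%.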

How the data were processed

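RNA from A498 cells had been sequenced as paired-end short reads in 12 libraries, per the labels. The authors deposited 1 table of 57773 genes with a signal value per gene and library, labelled as normalized. All 12 columns hold the same set of values, in whole multiples of 1 over 12 and with a total of 8.525 M, which is the form quantile normalization of read counts gives. A change common to all genes would not be visible in such values. The aligner, counting tool, strand setting, annotation and build were not given in the sources used here. Overlapping and antisense genes therefore cannot be told apart, and the coordinates given are those of RefSeq promoters, not of the deposited table. Depth was estimated from breaks in the table order of tied low values.

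Genes at 1 or more in at least 3 of 12 libraries were tested (18648) with limma 3.58.1 in R 4.3.3, on log2(signal + 1), with a variance trend and 4 group means over all 12 libraries. The limma and depth scripts were tested on simulated data. Tests were two-sided, and the replicates measure only the spread between these samples. Alternatives changed the libraries, trend, weights, pseudocount, filter, scaling and replicate block. Named genes are ELOVL5, ELOVL2, all called genes, up to 10 per direction called without siELOVL5 replicate 3 or with the replicate block, up to 4 per list by p, and up to 10 per direction by the difference of replicate 3. Others were looked up for their role. Some genes entered the fits and list counts but are not reported here by name or plotted. The members and the 34 gene lists were chosen with earlier results of these data known. Of 821 list genes, 807 matched by name and 7 by a RefSeq synonym, and 769 were tested.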

Additional observations from a re-analysis of the deposited data

How the results depend on the processing

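The comparison of siELOVL5 with control was fitted in 24 ways, the reported fit included. The log2 difference of ELOVL5 lay between -3.77 and -3.70 in the fits without 1 library and stayed called in all 24 fits. The count of 26 called genes was 26 under both other pseudocounts and both other scalings, 18 without a variance trend, 29 without the filter and 33 with a filter at 10. It was 1 with the control and siELOVL5 libraries alone, 145 with library weights, where siELOVL5 replicate 3 had a weight of 0.2283, and between 9 and 39 without any 1 library. The cause of these moves was not tested. With the replicate number as a block it was 99 (25 higher and 74 lower, all 26 among them). The replicate numbers were not taken to pair the libraries. Over all tested genes the deviations of control and siELOVL5 libraries with the same number correlated at 0.12, 0.03 and 0.08. Over the 9324 genes at or above the median level, a set looked at after the block's count was known, the correlations were 0.44, 0.16 and 0.22, and a first component of the deviations (46.9% of their variance) had loadings of 0.25, 0.01 and -0.25 in the controls and 0.39, 0.11 and -0.50 in siELOVL5. Libraries of siELOVL2 and double knockdown with the same number correlated at 0.17, 0.03 and 0.21 over all tested genes. Over the 9324 genes they correlated at 0.72, 0.05 and 0.75. Their loadings were 0.30, -0.01 and -0.30 in siELOVL2 and 0.25, 0.18 and -0.43 in double knockdown. In every group replicate 1 thus loaded above 0 and replicate 3 below 0. These are hints of a replicate effect from the data, not from the design. Of the 44 interferon-stimulated genes, the block called 3 higher with 42 below an unadjusted p of 0.05. Leaving out siELOVL5 replicate 3 as well gave 9 and 41. The list's median differences between libraries of the same number were 0.75, 0.58 and 1.07. The mitosis list's median with the block and without replicate 3 was -0.22, with 38 of 40 lower. Calls under the block included ISG15, IFI35, NLRC5 and SLC7A5 as higher and DICER1, HMOX1, CSF1 and GPR180 as lower, with limma adjusted p of 0.0393, 0.0404, 0.0132, 0.0436, 0.00439, 0.016, 0.00299 and 0.00023. The block without siELOVL5 replicate 3, a fit chosen after seeing the data, called 297 (1.59% of tested genes, against 0.531% with the block alone).

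In double knockdown minus siELOVL2 the count of 11 was 21 without a trend, 27 with library weights, 12 with the replicate block, 108 with the added fit and between 2 and 16 without any 1 library. The interaction count of 0 was 9 without a trend and 0 in the fits without 1 library. Of 4180 other values of named genes, 16 in 9 genes changed sign. Without siELOVL5 replicate 3 these were ANLN at 0.17, CSRNP1 at -0.03, GDF15 at -0.21, LFNG at 0.19, MAFF at -0.27 and STARD4 at -0.03. With library weights they were ANLN at 0.02, GDF15 at -0.03, LFNG at 0.04 and MAFF at -0.05. With the block and without replicate 3 they were CSRNP1 at -0.04, GDF15 at -0.38, MAFF at -0.43, MCL1 at -0.04 and PPP1R15A at -0.09. Without control replicate 1, CSF1R was at -0.04. In the fits without 1 library the values of these genes ranged from -0.67 to 0.17 for ANLN, -0.04 to 0.91 for CSF1R, -0.03 to 1.24 for CSRNP1, -0.21 to 1.33 for GDF15, -0.55 to 0.19 for LFNG, -0.27 to 1.68 for MAFF and -0.03 to 0.74 for STARD4. Of 782 list medians, 25 moved by more than the spread between replicates. Depth limits the interferons and other genes with signals of a few reads.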
